A study of Mus musculus with 4 samples.

Results

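The genes described here are the 10 genes of major histocompatibility complex class I (MHC-I) peptide loading, which were chosen by gene symbol from the 54641 symbols of the expression table. They are the classical heavy chains H2-K1 and H2-D1, the light chain B2m, the peptide transporter subunits Tap1 and Tap2, tapasin (Tapbp), the aminopeptidase Erap1, the lectin chaperones Calr and Canx and the disulfide isomerase Pdia3. All 10 were found, and all 10 reached 1 CPM (counts scaled to 1000000 assigned reads in each library) in at least 1 line and were tested. RNA was sequenced from 4 untreated cell lines of murine small cell lung cancer (SCLC), with 1 library per line. The lines came from an autochthonous model on a C57BL/6 background, in which tumors arise after intratracheal Adeno-Cre deletes conditional alleles of Rb1 and Trp53, so that every line carries the same engineered deletions. The primary group comprised P1, P4 and P5, from lung tumors of different mice (n = 3 lines), and the metastatic group M1, from a liver metastasis of another mouse (n = 1 line), according to the series' design text. The sample labels themselves give a lung origin for all 4 and call each genotype SCLC WT. The age and sex of the mouse behind each line were not given. Each line is a single established culture, so that the spread over P1, P4 and P5 is a spread between lines.

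MHC-I molecules present peptides from inside the cell to CD8 T cells. Proteasomes cut proteins into peptides, the TAP transporter carries these into the endoplasmic reticulum (ER), and ERAP1 trims them to fit the groove. The heavy chain is first held by calnexin (Canx), then pairs with β2-microglobulin and enters the loading complex, where tapasin, PDIA3 and calreticulin (Calr) keep it receptive next to TAP until a suitable peptide is bound. Heavy chains, B2m, the TAP subunits, tapasin and the immunoproteasome are known interferon-inducible genes, and several of them are targets of the transactivator NLRC5. Calr, Canx and Pdia3 instead serve the folding of glycoproteins in general. SCLC is known for low MHC-I on the cell surface. The comparison asked whether the machinery that loads the heavy chains was transcribed in proportion to them in primary and metastatic cells.

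Of the 10 genes, 9 had an entry among the RefSeq promoter sequences (build GRCm38.p6), all but Tap2. Motifs were searched on both strands of the 250 bases before each start. The heavy chains and B2m are shown first because they shared a spaced pair of motifs. In each of the 3, a TGACG match (part of a cyclic AMP response element) and a CCAAT match had their first bases 25 apart, a spacing found in 0.107% of 27025 promoters. It was noticed in the members before it was counted over all promoters. H2-K1 and H2-D1 also shared 2 matches to GGGANNCCC, a core read by NF-κB and held by 4.66% of promoters, and all 3 genes had an interferon regulatory factor core (AANNGAAA, held by 21.6% of promoters). Below are the 200 bases before the start, 5′ to 3′, with matches to these motifs in capitals. They lie on the minus strand at chr17:34000348-34000547 for H2-K1, inside the span of longer predicted transcripts, and on the plus strand at chr17:35262894-35263093 for H2-D1 and chr2:122147487-122147686 for B2m. AANNGAAA matches do not overlap the other motifs in these 3 windows.
H2-K1: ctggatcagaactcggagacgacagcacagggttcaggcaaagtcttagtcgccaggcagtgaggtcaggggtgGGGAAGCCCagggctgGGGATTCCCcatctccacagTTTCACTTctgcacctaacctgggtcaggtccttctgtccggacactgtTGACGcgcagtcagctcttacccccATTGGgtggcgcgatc
H2-D1: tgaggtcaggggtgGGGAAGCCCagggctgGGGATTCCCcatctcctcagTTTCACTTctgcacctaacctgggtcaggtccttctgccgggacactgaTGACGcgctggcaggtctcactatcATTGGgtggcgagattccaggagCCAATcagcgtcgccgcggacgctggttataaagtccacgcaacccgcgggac
B2m: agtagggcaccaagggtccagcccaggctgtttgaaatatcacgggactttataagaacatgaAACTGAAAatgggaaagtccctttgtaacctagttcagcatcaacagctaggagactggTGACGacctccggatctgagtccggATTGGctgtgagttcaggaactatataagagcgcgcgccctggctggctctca

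Calr and Canx are shown next because they were the members with an ER stress response element, CCAAT and CCACG with 9 bases between them, which 0.122% of the promoters held. The stretches lie on the minus strand at chr8:84846932-84847131 for Calr and chr11:50325674-50325873 for Canx, with all motifs named so far in capitals. In Calr a CCAAT match overlaps an AANNGAAA match, and in both genes CCAAT is also part of the stress element.
Calr: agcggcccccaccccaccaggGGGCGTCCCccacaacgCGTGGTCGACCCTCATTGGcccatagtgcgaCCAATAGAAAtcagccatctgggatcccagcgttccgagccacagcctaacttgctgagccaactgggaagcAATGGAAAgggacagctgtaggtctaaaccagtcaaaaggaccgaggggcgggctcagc
Canx: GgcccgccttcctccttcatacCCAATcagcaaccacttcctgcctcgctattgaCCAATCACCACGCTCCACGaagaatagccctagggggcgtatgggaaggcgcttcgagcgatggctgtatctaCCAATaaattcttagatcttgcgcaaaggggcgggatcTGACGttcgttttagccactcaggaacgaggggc
The gamma interferon activation site TTCNNNGAA (7.18% of promoters) was in 0 of the 9 windows. TGACG alone was in 6 of the 9 windows and in 17.9% of promoters, and CCAAT alone in 8 of the 9 and in 34.5%. A match describes the letters in a window and says nothing of binding in these lines.

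The libraries held between 9527011 and 13890726 assigned reads, by the value of a single read. P1 and P5 contained 17824 and 20578 gene symbols above 0, but P4 and M1 only 7985 and 10074, so that a 0 is given as listed. For Tap1, Tap2 and Erap1 the share of genes of like level also at 0 is given. In the column names P1 and P5 share a number that P4 and M1 do not carry, and no source used here explains it. Of the 14 neuroendocrine markers, which characterize most SCLC, P1 expressed 4 above 0, P4 1, P5 14 and M1 9. The marker in P4 was Ncam1 (299 CPM), so that most neuroendocrine markers were listed at 0 in P1 and P4. Of the 8 hepatocyte markers, the summed level was at most 1.65 CPM in any line.

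Transcripts of both heavy chains were most abundant in M1. H2-K1 (chromosome 17, 33996012 to 34000619, GRCm38.p6) measured 30.5 (P1), 18.9 (P4), 43.7 (P5) and 112 CPM (M1). H2-D1 (chromosome 17, 35263094 to 35267497) measured 54.1 (P1), 35.2 (P4), 69.9 (P5) and 159 CPM (M1). Both genes thus ordered the lines in the same way, with P4 lowest and M1 highest, and the groups did not overlap. With 1 metastatic line this was common, as M1 was above every primary line for 22% of the 14888 genes tested. The level of M1 was 3.62-fold the primary mean for H2-K1 and 2.99-fold for H2-D1. The difference was nevertheless not past the threshold for H2-K1 (log2 difference 1.90 ± 0.70, SE; limma, adjusted p = 0.542) or H2-D1 (1.62 ± 0.59, SE; limma, adjusted p = 0.537). In bulk RNA, fewer cells with a transcript and less transcript per cell cannot be told apart. H2-K1 stood at 0.565, 0.538, 0.626 and 0.707 of H2-D1 in P1, P4, P5 and M1. The share of H2-K1 was highest in M1, and the sum of both genes lay between 54.1 CPM (P4) and 271 CPM (M1). H2-K1 reads were whole numbers in every library, whereas H2-D1 had 515.39 reads in P1 and 805.49 in P5, values that are not whole, as when reads shared between genes are divided.

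Some markers of immune cells, which express MHC-I strongly, were also higher in M1, although none passed the threshold. The summed level of the 19 markers was between 14.3 and 16.1 CPM in the primary lines and 360 CPM in M1, of which the immunoglobulin light chain gene Igkc held 179 CPM. In M1, 8 of the 19 were above 0, led by Igkc and the myeloid genes Lyz2 (47.4 CPM), Fcer1g (39.2 CPM) and Laptm5 (39.1 CPM), and 11 were at 0. Of these 8, 6 entered the fit through M1 alone. The defining markers Ptprc (CD45), Cd3e, Itgam and Adgre1 were all listed at 0 in M1, and Cd14, highest in P4 (14.3 CPM), was at 0 there too. The 8 MHC class II markers summed to 83.0 CPM in M1 and to 0.840, 0.0720 and 12.9 CPM in P1, P4 and P5. Ciita and H2-DMa were listed at 0 in M1, and 5 of the 7 class II markers tested entered the fit through M1 alone. Some neuroendocrine markers were higher in M1 as well, with 8 of 14 above every primary line, against 22% of all genes tested. Among these 8, Neurod1 and Syp entered the fit through M1 alone, so that their place above was fixed by the filter. Nefm was at 227 CPM in M1, with no primary line above 3.47 CPM. The summed level of the neuroendocrine markers was 346, 299 and 1538 CPM for P1, P4 and P5. It was 972 CPM for M1, inside the primary range. The part of other cell types or of neuroendocrine state in the heavy chain values was not tested.

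**Figure D1:**
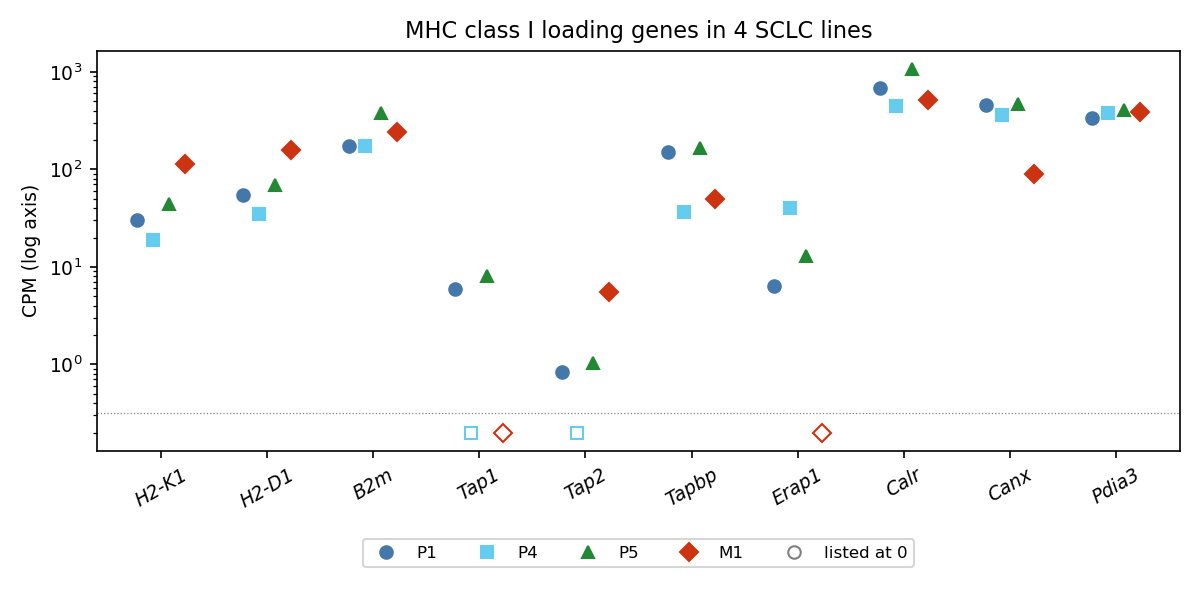
CPM of the 10 MHC-I loading genes in each line on a log axis, with 1 point per library; open symbols below the dotted line are values listed at 0. M1 was above the 3 primary lines for H2-K1, H2-D1 and Tap2, below them for Erap1 and Canx, and within their range for the others.

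B2m, the light chain that pairs with the heavy chains, did not share their order of the lines. B2m (chromosome 2, 122147687 to 122153082) measured 174 (P1), 175 (P4), 377 (P5) and 242 CPM (M1). M1 lay inside the primary range and at 0.999-fold its mean (log2 difference 0.10 ± 0.64, SE; limma, adjusted p = 0.937). The direction of this small difference turned without P1 (-0.09) and without P4 (-0.08). For each CPM of H2-K1 and H2-D1 together, B2m measured 2.06 (P1), 3.23 (P4), 3.32 (P5) and 0.891 CPM (M1). Per kilobase of transcript, B2m exceeded the summed heavy chains 3.62-fold (P1), 5.68-fold (P4), 5.78-fold (P5) and 1.54-fold (M1). Light chain transcript was thus above heavy chain transcript in every line on this scale, with the smallest ratio in M1.

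The peptide transporter genes were among the lowest of the machinery, and the 2 subunits differed in which lines they were found. Tap1 (chromosome 17, 34187556 to 34197225) was at 5.88 CPM in P1 (56 reads) and 8.07 CPM in P5 (93 reads) and was listed at 0 in P4 and M1. Tap2 (chromosome 17, 34204479 to 34216321) was at 0.840 CPM with 8 reads in P1, at 0 in P4, at 1.04 CPM with 12 reads in P5 and at 5.46 CPM with 61 reads in M1. Tap1 was therefore the more abundant subunit in P1 and P5 (1.89 and 2.60 CPM per kb, against 0.211 and 0.262 for Tap2) and the undetected one in M1, where 3 reads would have been 0.269 CPM. The 95% Poisson interval of Tap2 in M1, which covers counting error only, was 4.18 to 7.01 CPM and did not overlap the 0.538 to 1.82 CPM of P5. Neither gene passed the threshold (log2 difference -1.99 ± 1.75 for Tap1 and 2.06 ± 0.91 for Tap2, SE; limma, adjusted p = 0.721 and 0.645). Zeros at this level were common. Among 1898 other genes whose CPM in P1 and P5 was within 2-fold of Tap1, P4 had 59.4% at 0 and M1 46.1%. For Tap2, the same comparison gave 89.9% at 0 in P4, and 9.28% of 1131 genes with like values in P1 and P5 had a CPM in M1 at or above its own.

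The TAP genes lie in a run with 2 immunoproteasome subunits that cut peptides for MHC-I. Psmb9, Tap1, Psmb8 and Tap2 follow each other within 34.3 kb of chromosome 17 in GRCm38.p6, with 225 bases between Psmb9 and Tap1 and 0 protein-coding genes inside the gaps. In M1, Psmb9 was at 29.5 CPM and Psmb8 at 42.2 CPM, beside Tap1 at 0 and Tap2 at 5.46 CPM. In P5, Psmb9 was at 2.43 CPM and Psmb8 at 21.3 CPM. In P1 they were at 0.315 and 2.31 CPM, and in P4 all 4 genes were listed at 0. Psmb9, Psmb8 and Tap2 were thus highest in M1, and Tap1 was not. Psmb9 and Psmb8 did not pass the threshold (log2 difference 4.20 and 3.36; limma, adjusted p = 0.470 and 0.721).

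**Figure D2:**
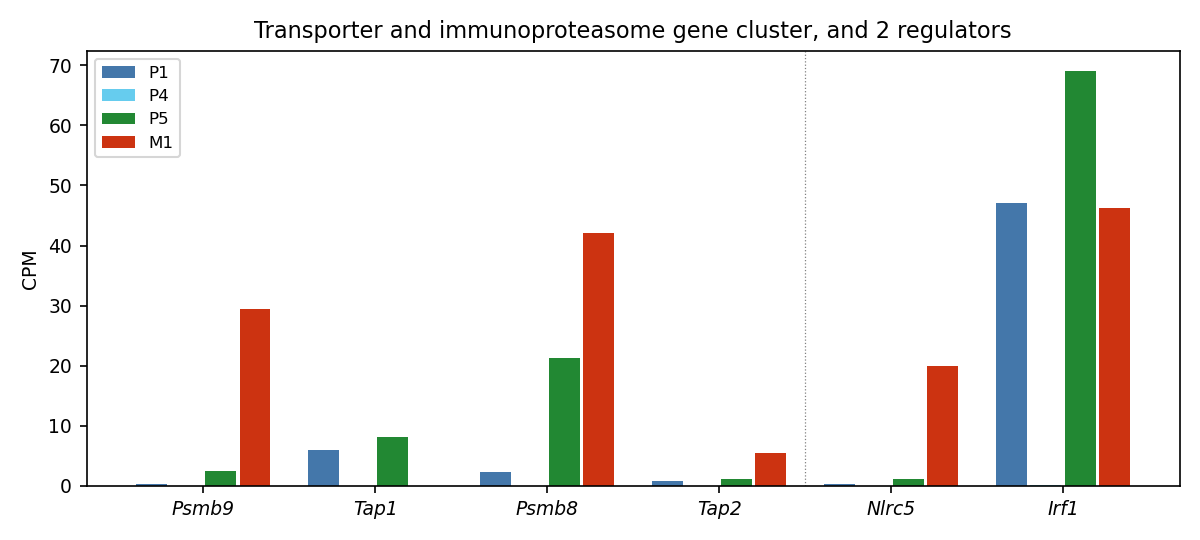
CPM of the gene run Psmb9, Tap1, Psmb8 and Tap2 in chromosomal order (left of the dotted line) and of the regulators Nlrc5 and Irf1 (right), as 1 bar per library on an axis from 0; a missing bar is a value listed at 0 or too low to see. M1 was highest for Psmb9, Psmb8, Tap2 and Nlrc5 and at 0 for Tap1.

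Tapbp and Erap1, which edit and trim the peptide, divided the lines in their own ways. Tapbp (chromosome 17, 33919478 to 33929290) measured 152 (P1), 36.4 (P4), 166 (P5) and 50.1 CPM (M1). The values fell into a high pair, P1 and P5, and a low pair, P4 and M1, so that the primary range enclosed M1 (log2 difference -0.94 ± 1.09, SE; limma, adjusted p = 0.725). Against P4 alone the direction turned (0.45). Erap1 (chromosome 13, 74639573 to 74693205) measured 6.42 (P1), 40.2 (P4), 12.8 (P5) and 0 CPM (M1). Its primary lines spread 6.26-fold, the most of the members above 0 in all of them, and it was highest in the line where the heavy chains were lowest. Its log2 difference of -4.01 ± 1.57 (SE) was the lowest of the members and did not pass the threshold (limma, adjusted p = 0.573). Of 303 genes within 2-fold of Erap1 in each primary line, 24.1% were listed at 0 in M1.

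Among the general chaperones of the loading complex, Canx was low in M1 while Calr and Pdia3 were not. Canx (chromosome 11, 50293957 to 50325673) measured 454 (P1), 357 (P4), 464 (P5) and 90.4 CPM (M1). The primary lines stayed within 1.30-fold of each other, and their mean was 4.70-fold the value of M1. Canx had the smallest unadjusted p of the members (0.00553; log2 difference -2.21 ± 0.39, SE) and was not past the threshold after adjustment (limma, adjusted p = 0.304). Of 196 genes within 2-fold of Canx in each primary line, 4.08% were at or below it in M1. Calr (chromosome 8, 84842088 to 84846931) measured 675 (P1), 445 (P4), 1072 (P5) and 514 CPM (M1), a level that P4 and P1 enclosed (log2 difference -0.41 ± 0.64, SE; limma, adjusted p = 0.755). Pdia3 (chromosome 2, 121413902 to 121438687) was the steadiest member, at 335 (P1), 376 (P4), 403 (P5) and 390 CPM (M1) (log2 difference 0.08 ± 0.37, SE; limma, adjusted p = 0.915). The 2 lectin chaperones accordingly parted: Calr was at 1.49, 1.24 and 2.31 times Canx in P1, P4 and P5 and at 5.69 times in M1.

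Counted together, 3 of the 10 members were above every primary line in M1, against 22% of the 14888 genes tested, and 2 were below, against 20.7%. A gene listed at 0 in P4, where 7985 symbols were above 0, cannot be below every primary line. The 20.7%, here and for the lists that follow, therefore includes many genes that could not qualify. With limma, 0 of the 10 passed the adjusted threshold of 0.05, as did 0% of all genes (0 of 14888). At an unadjusted p under 0.05, 0 of the 10 were higher and 1 was lower, against 4.53% and 5.15% of all genes (674 and 767 genes). The median log2 difference of the members was -0.17 and that of all genes -0.53. With 1 metastatic line the spread came from the 3 primary lines alone, and a p above the threshold does not show that the lines are alike.

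**Figure D3:**
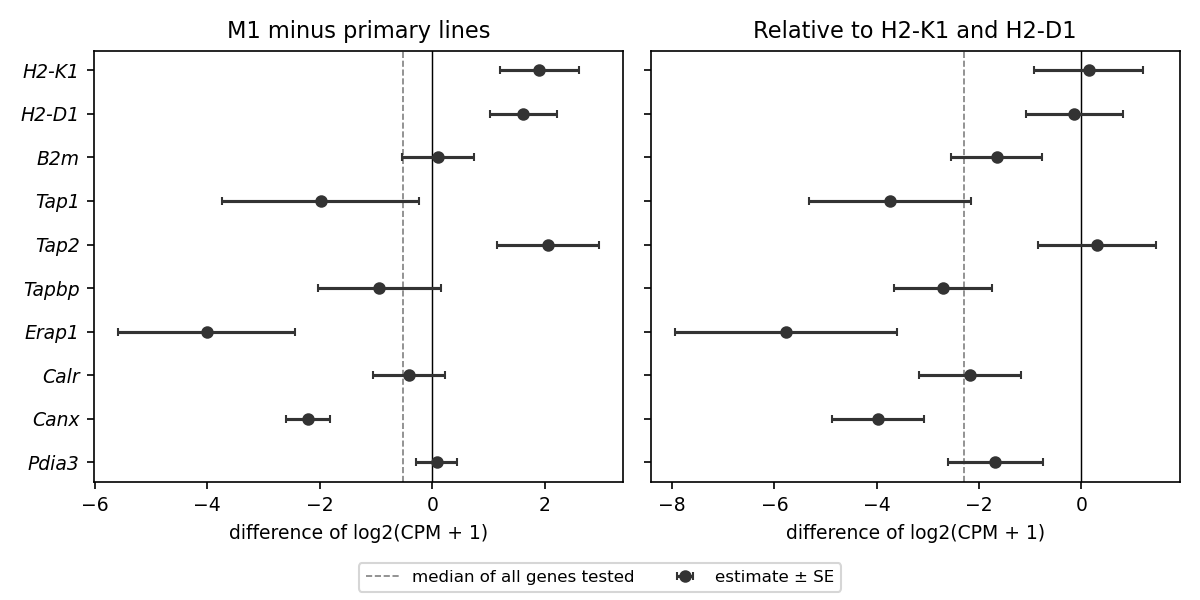
Log2(CPM + 1) difference of M1 minus the primary lines for each member (left), and the same after subtracting the mean of H2-K1 and H2-D1 within each library (right); points are limma estimates, bars 1 SE, and the dashed line is the median of all genes tested. On the right, B2m, Tap1, Tapbp, Erap1, Calr, Canx and Pdia3 lie below 0 and the median of all genes lies at -2.29.

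The machinery was then set against the heavy chains within each library. For each CPM of H2-K1 and H2-D1 together, Calr measured 7.98 (P1), 8.21 (P4), 9.43 (P5) and 1.90 CPM (M1). Canx was at 5.36 (P1), 6.60 (P4), 4.08 (P5) and 0.333 CPM (M1), and Pdia3 at 3.96, 6.94 and 3.54 CPM and at 1.44 CPM in M1. Calr kept the most even proportion of the general chaperones in the primary lines, with 8.54 ± 0.78 (SD, n = 3), and in M1 was at 22.2% of that mean. Tapbp was at 1.80 (P1), 0.672 (P4), 1.46 (P5) and 0.185 CPM (M1). Erap1 was at 0.0759, 0.742 and 0.112 CPM and at 0 in M1. Tap2 was the only machinery gene with a higher proportion in M1, at 0.00992 (P1), 0 (P4), 0.00916 (P5) and 0.0201 (M1). In all, 6 of the 8 machinery genes had a lower proportion in M1 than in every primary line, against 39.8% of all genes tested. A gene listed at 0 in P4 cannot meet this condition. Tap1 and Tap2 were at 0 there, and P4 had 7985 symbols above 0, fewer than the 14888 genes tested. The 2 shares are therefore not on an equal footing.

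**Figure D4:**
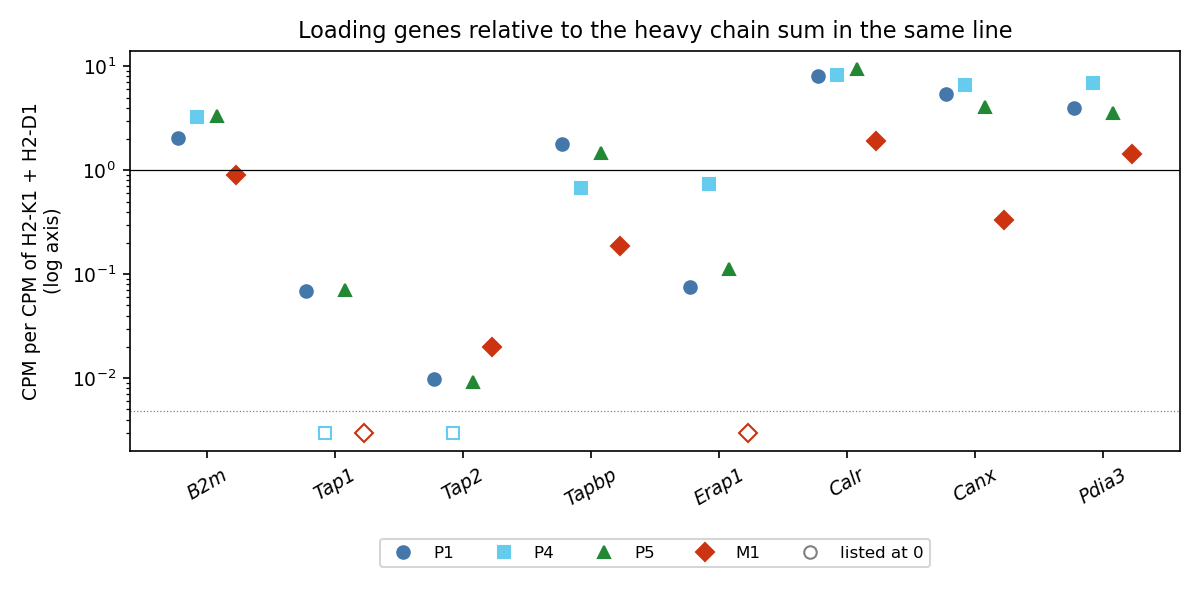
CPM of each machinery gene per CPM of H2-K1 and H2-D1 together in the same library, on a log axis; the horizontal line marks 1 and open symbols are values listed at 0. M1 lies below all primary lines for B2m, Tapbp, Erap1, Calr, Canx and Pdia3, and above them for Tap2.

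The median gene of the transcriptome was also lower in M1 relative to the heavy chains. The median difference relative to the heavy chains was -2.44 on the log2 scale for the 8 machinery genes and -2.29 for all genes tested. Among genes averaging at least 10 CPM, the median was -1.81 for all genes and -2.44 for the machinery genes in that class. How near the machinery was to all genes thus depended on the filter. In the limma fit of these relative values 2 of the 8 passed the threshold, Canx (-3.97 ± 0.90, SE; adjusted p = 0.0106) and Tapbp (-2.70 ± 0.95, SE; adjusted p = 0.0395), against 28.8% of all genes. At an unadjusted p under 0.05, 5 of the 8 were lower, against 49% of all genes. Tap1, Erap1 and Calr had adjusted p of 0.0759, 0.0515 and 0.0929, B2m and Pdia3 of 0.137 and 0.152, and Tap2 of 0.868 (limma). The count of all genes called, 4289, depended on the lines and on the variance model: it was 2570 without P1, 9539 without P4, 125 without P5 and 0 with a variance prior that does not follow the mean level (5704 at an unadjusted p under 0.05). Without P1 or P5 Tapbp lost its call (limma, adjusted p = 0.234 and 0.207) and Canx kept it (0.0350 and 0.0159). The Tapbp call also ended with a pseudocount of 0.1 or a mean of at least 10 CPM (limma, adjusted p = 0.107 and 0.0922). The column number as a batch term groups P1 with P5, so that M1 is set against P4 alone. The relative difference was then -1.87 for Tapbp and -7.69 for Erap1, values of 1 library against 1. Without P4, Tap1, Erap1 and Calr gained a call (limma, adjusted p = 0.000282, 0.000132 and 0.0383). With the prior that does not follow the mean, Canx had an adjusted p of 0.124 and Tapbp of 0.127 (limma). An exact permutation test of a single ratio over 3 lines against 1 cannot give a two-sided p below 0.25, and B2m, Tap2, Tapbp, Calr and Canx were at that value. Erap1 and Pdia3 had an exact permutation p of 0.5 and Tap1 of 0.75. On the log2 values relative to the heavy chains, the scale of the fit, the exact permutation p was 0.25 for all 8.

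The position of M1 depended on which primary line it was set against for some members only. Relative to P4, the other library with few detected genes, the log2 difference of M1 was 2.51 for H2-K1 and 2.14 for H2-D1. Relative to P1 and P5 it was 1.59 and 1.36. Canx was lower in both settings, by -1.97 and -2.33, as was Erap1 by -5.36 and -3.34. Tapbp was at 0.45 against P4 and -1.64 against P1 and P5, and Calr at 0.21 and -0.73. For Tapbp and Calr, M1 thus lay nearer to P4 than to P1 and P5. Relative to the heavy chains, Calr was at -2.12 against P4 and -2.20 against P1 and P5, and Canx at -4.30 and -3.80.

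Levels were compared between genes per kilobase of the canonical GENCODE transcript, a scaling that would not apply to 3′ libraries, and the sources differ on the library type. In P1 and P5 the order was Calr, B2m, Canx, Pdia3, Tapbp, H2-D1 and H2-K1, and in P4 Pdia3 was above Canx and H2-D1 above Tapbp. In M1, Calr (225 CPM per kb) and B2m (223 CPM per kb) were nearly level, followed by Pdia3 (106 CPM per kb), H2-D1 (75.1 CPM per kb) and H2-K1 (69.4 CPM per kb), and Canx (23.7 CPM per kb) and Tapbp (16.8 CPM per kb) came after the heavy chains. Tap1, Tap2 and Erap1 were at the bottom in every line, at no more than 7.12 CPM per kb. The order of neighbors that lie this close, such as Calr and B2m in M1, has no replicate behind it within a line.

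Other genes of the pathway were counted from lists. Of the 15 other class I heavy chain genes in the table, 7 were tested, of which 3 were above every primary line in M1 and 0 below, against 22% and 20.7% of all genes tested (median log2 difference 1.01, against -0.53 for all genes). However, 14 of the 15 were listed at 0 in P4 and could not be below every primary line. H2-T22 was at 0.0720 CPM there. The 0 below therefore carries no information. H2-Q4 reached 66.7 CPM in M1, with no primary line above 1.39 CPM. H2-T23, which encodes the nonclassical molecule Qa-1, reached 21.8 CPM in M1, with no primary line above 1.31 CPM. H2-Q7 was at 22.9 CPM in M1, but entered the test through M1 alone. H2-M5 and H2-T10, the lowest by difference, were above 0 only in P1 and P5, at 1.82 CPM or less. These genes resemble each other, so the assignment of their reads is uncertain. Among immunoproteasome and PA28 genes, 3 of 5 were above every primary line and 1 below (22% and 20.7% of all genes; median 0.95). Psmb10 measured 42.0 (P1), 26.7 (P4), 23.2 (P5) and 58.4 CPM (M1). Psme1, a subunit of the PA28 cap, measured 115 (P1), 103 (P4), 106 (P5) and 56.3 CPM (M1), and its partner Psme2 76.5 (P1), 61.4 (P4), 88.5 (P5) and 73.7 CPM (M1). The constitutive subunits that the immunoproteasome replaces, Psmb5, Psmb6 and Psmb7, had log2 differences between -0.10 and 0.43. In each of these lists 0 genes passed the threshold (limma).

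Among 7 other trimming and editing genes, 1 was above every primary line and 4 were below (22% and 20.7% of all genes; median -0.96). Tapbpl, a tapasin relative that edits peptides outside the loading complex, measured 17.4 (P1), 1.08 (P4), 18.7 (P5) and 26.1 CPM (M1). The cytosolic peptidase gene Thop1 measured 18.6 (P1), 10.4 (P4), 7.90 (P5) and 0 CPM (M1). Ide, the insulin-degrading enzyme, measured 68.6 (P1), 10.7 (P4), 58.7 (P5) and 2.86 CPM (M1). Tapbpl thus stood highest in M1 and both peptidases lowest, while Tpp2, a large cytosolic peptidase, was within range at 123 (P1), 0 (P4), 102 (P5) and 33.6 CPM (M1). Of the 26 regulators of class I genes, 8 were above and 5 below every primary line, against 22% and 20.7% of all genes (median 0.51), and 13 were listed at 0 in P4. Nlrc5, the class I transactivator, measured 0.315 (P1), 0 (P4), 1.13 (P5) and 20.0 CPM (M1; log2 difference 3.89 ± 1.08, SE; limma, adjusted p = 0.383). Irf1, an interferon-induced factor, was at 46.2 CPM in M1, inside the range of 0.0720 to 69.0 CPM. Rfxank and Irf3 were listed at 0 in M1 and at 8.78 to 11.9 and 6.19 to 31.7 CPM in the primary lines. Zeros were common in M1, where 5058 of the 14888 genes tested were listed at 0. The zeros of Rfxank, Irf3 and Thop1 are therefore given as listed. Rfxank is a subunit of the RFX complex through which NLRC5 reaches class I promoters. Eed, a subunit of the repressive PRC2 complex, measured 25.1 (P1), 0 (P4), 22.9 (P5) and 41.9 CPM (M1). Again 0 of these genes passed the threshold (limma).

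Genes of general ER folding gave a setting for Canx. Of the 21 listed, 9 were below every primary line in M1 and 2 above, where all tested genes gave 20.7% and 22%. Of these 21, 18 were above 0 in P4, without which a gene cannot be below every primary line, and the 20.7% includes many genes at 0 there. In the limma fit, 4 had an unadjusted p under 0.05 and 0 passed the threshold (median log2 difference -0.38). Dnajc3, a cochaperone of BiP, measured 116 (P1), 103 (P4), 155 (P5) and 4.30 CPM (M1), and Creld2, an ER stress-induced gene, 21.5 (P1), 47.9 (P4), 22.8 (P5) and 0.716 CPM (M1). Both were lower in M1 than in any primary line by more than Canx on the log2 scale (-4.55 and -4.11). Clgn, a testis relative of calnexin, measured 0 (P1), 0 (P4), 1.21 (P5) and 10.3 CPM (M1), and the stress factor gene Xbp1 14.3 (P1), 0 (P4), 37.0 (P5) and 24.3 CPM (M1). The summed level of the list was 2105 CPM in M1 and 3024, 2660 and 4566 CPM in P1, P4 and P5.

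Finally, the genes whose pattern over the 4 lines was nearest to the mean of H2-K1 and H2-D1 were Npdc1, Osgin2, Fbxo22, Ube2g1 and Commd7, with Euclidean distances of 0.154 to 0.269 in centred log2(CPM + 1) over the 8259 genes averaging 10 CPM or more. H2-K1 and H2-D1 were each 0.141 from their own mean. Npdc1 measured 38.8 (P1), 23.9 (P4), 47.3 (P5) and 132 CPM (M1). Of the machinery, B2m ranked 1078, Pdia3 1287, Calr 1984, Tapbp 4039, Canx 6021 and Erap1 7714 by this distance. Tap1 and Tap2 were below the level for ranking, and the distance of Tap2, 0.337, was the smallest of the 8 machinery genes. With 4 libraries this is a description of levels alone.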

How the data were processed

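The authors deposited 1 table of CPM values, normalized per 1000000 assigned reads, for 4 libraries. Library type differs between sources (total RNA per the labels, 3′ mRNA in the methods), the processing notes name build mm10, and no source used here names the counting tool. Rows without a symbol (85, at most 0.0130% of a library) were left out and values of duplicated symbols were added up. A library's commonest value above 0 served as 1 read; 79.0% to 88.9% of values were whole reads (tolerance 0.001), so no count model was fitted. Genes reaching 1 CPM in any library entered limma 3.58.1 (R 4.3.3) as log2(CPM + 1) (eBayes with trend, two-sided, Benjamini-Hochberg over all genes, threshold 0.05), first alone and then after subtracting the mean of H2-K1 and H2-D1. A difference on this scale understates changes of low genes. P-values measure the spread between lines. Fits were tested on simulated data. Members and lists were chosen with earlier results of these data known. All 10 members are named; of each list the 2 highest and 2 lowest differences, with Nlrc5, Irf1, Psmb8, Psmb9, Psmb10 and Tapbpl; and the 5 genes nearest the heavy chains. Some genes under these rules are not reported here. H2-T23 and the single marker genes were named after their values were seen. Alternatives covered pseudocounts, filters, the variance prior, left-out lines, the column number, rescaling and each heavy chain alone. Of the other marker lists, fibroblast genes summed to 1125 CPM in P5 and at most 115 CPM elsewhere, endothelial genes to at most 19.3 CPM, and epithelial genes to 164 CPM in P5 and at least 814 CPM elsewhere.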

Additional observations from a re-analysis of the deposited data

How the results depend on the processing

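No paired analysis was possible because, by the series' design text, M1 came from another mouse than the primary lines. In the comparison of M1 with the primary lines, 0 genes passed under every alternative run (limma), and the directions of H2-K1, H2-D1, Tap2, Erap1, Canx and Pdia3 were kept. The direction turned for B2m without P1 (-0.0858) or without P4 (-0.0847), in a range of -0.0858 to 0.468 with 1 primary line left out. It also turned for Tap2 relative to the heavy chains with a pseudocount of 5 (-0.75). With the column number as a batch term, M1 is set against P4 alone. In that setting the direction turned for Tapbp (0.45) and Calr (0.21), and Tap1 was at 0. The number of genes called relative to the heavy chains was 4289, against 665 and 7574 with pseudocounts of 0.1 and 5, 14546 without a filter, 278 at a mean of at least 10 CPM and 0 without a trended prior. It ranged from 125 to 9539 when 1 primary line was left out. The cause was not tested. The median of the 8 machinery genes relative to the heavy chains stayed between -2.66 and -2.19. Leaving out M1 gives no value, because it is the only metastatic line. For Tap1, Tap2 and Erap1, 3 reads correspond to 0.216 to 0.315 CPM, depending on the library. The zeros of these genes were in P4 and M1, with 13890726 and 11170276 assigned reads. P1 and P5, where all of these genes were above 0, held 9527011 and 11523176 assigned reads. P4 and M1 had 7985 and 10074 symbols above 0, against 17824 and 20578 in P1 and P5. What produced these zeros was not tested.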
